A study of Homo sapiens with 12 samples.

Results

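The sites described here are intron positions at which RNA was crosslinked to FOX2 in every one of 4 FOX2 libraries and at which neither TDP43 nor hnRNP M was listed nearby. They were chosen from the listed positions of the first wild-type FOX2 library. Its intron positions were taken from the highest count downwards and at least 11 nt apart on a strand, which gave 73485 windows. A window was kept when each of the 3 other FOX2 libraries had a listed position within 5 nt on the same strand and no TDP43 or hnRNP M library had one within 10 nt. A megabase of the long arm of chromosome 15 was left out by the same rule. This left 1680 FOX2-only sites, 2.29% of the 73485 windows. Another 413 windows were repeated in all 4 FOX2 libraries but had a TDP43 or hnRNP M position within 10 nt, so the FOX2-only sites made up 80.3% of the 2093 repeated windows. The presence in 4 FOX2 libraries and the absence of the other proteins at the sites are therefore how the sites were chosen, not findings about them.

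FOX2 (RBFOX2, also called RBM9) is an RNA-binding protein of the RBFOX family that regulates alternative splicing. It recognises the short element GCAUG through its RNA recognition motif, mostly in introns, and its position upstream or downstream of an alternative exon is known to bear on whether that exon is skipped or included. TDP43 binds GU-rich RNA and represses the use of cryptic exons, and hnRNP M is a heterogeneous nuclear ribonucleoprotein that also takes part in splicing. In iCLIP, RNA is crosslinked to protein by ultraviolet light and recovered with an antibody, and reverse transcription tends to stop at the crosslinked nucleotide, so that a read start marks the contact to about a single nucleotide. The sequences under the sites were not analysed here, so that nothing is said about the element they hold.

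All libraries came from H9, an established human embryonic stem cell line cultured without further treatment, in wild-type (WT) form and in a derivative labelled P-KO, whose source is given as H9 SPA PKO cells. The labels do not say how many clones the P-KO line represents. Cells of both kinds were irradiated at 400 mJ/cm2, and RNA was recovered with an antibody to RBFOX2, to TDP43 or to hnRNP M. Each protein and genotype was measured in 2 libraries, called biological replicates by the submitters, for 12 libraries with 1162690 listed positions in all. The study compared the binding of the 3 proteins between the genotypes.

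Summed over 11-nt windows, the FOX2 libraries held 218733 and 288698 counts (WT) and 232174 and 648651 counts (P-KO), so the second P-KO library was the deepest of the 12. The TDP43 and hnRNP M libraries held between 58191 and 292694. The plus strand of the left-out megabase of chromosome 15 differed with the genotype label. It held between 0.915% and 1.63% of the counts in the 6 WT libraries and between 0.0530% and 0.160% in the 6 P-KO libraries. The files name transcripts by Ensembl identifier and do not pair them with gene names, so pluripotency markers of the cells were not checked, and loci are given by hg19 position and transcript.

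At most sites the counts were small. The median site had 5 counts in WT replicate 1, 6 in WT replicate 2, 9 in P-KO replicate 1 and 20 in P-KO replicate 2, and the highest had 59, 81, 120 and 253. The lowest listed count was 2, and 177, 116, 12 and 1 of the 1680 sites stood at it in the same order of libraries. Per 1000000 window counts of the library (CPM), the median site stood at 22.9 and 20.8 CPM in WT and at 38.8 and 30.8 CPM in P-KO cells. Averaged over the 4 libraries, sites ran from 7.33 to 296 CPM with a median of 29.5 CPM, and 69 sites reached 100 CPM. The signal was thus spread over many weak sites: the 168 strongest held 27.9% of the summed CPM and the 20 strongest held 6.23%.

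**Figure D1:**
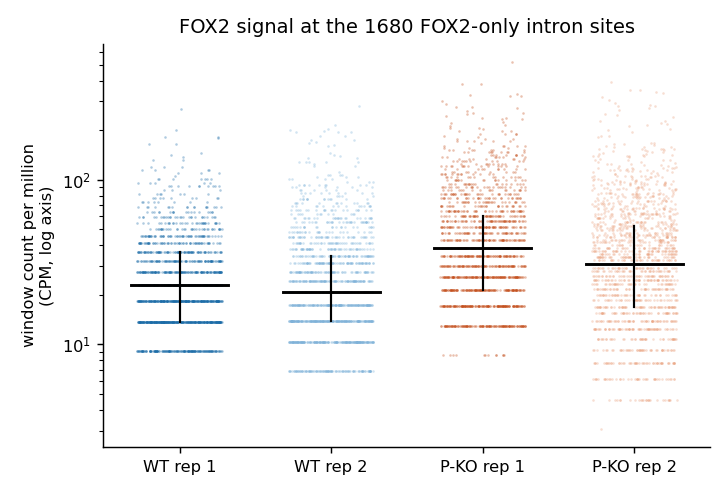
Window counts per 1000000 (CPM) at the 1680 FOX2-only intron sites in each FOX2 library, on a log axis. Each point is a site, moved sideways at random. The horizontal line marks the median and the vertical line spans the quartiles. The medians are 22.9 and 20.8 CPM in the WT libraries and 38.8 and 30.8 CPM in the P-KO libraries.

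The site with the highest mean lay at chr5:93535380 on the minus strand, in intron 1 of ENST00000513200.3. It had 270 and 125 CPM in WT cells and 517 and 271 CPM in P-KO cells. Both P-KO libraries were above both WT libraries, though the lower P-KO value stood barely above the higher WT value. The next, at chr14:65205048 on the plus strand in intron 12 of ENST00000247226.7, had 178 and 281 CPM in WT and 327 and 341 CPM in P-KO cells. A site at chr8:1773616 on the plus strand, in intron 1 of ENST00000349830.3, had 165 and 194 CPM in WT and 323 and 351 CPM in P-KO cells. At these sites, too, the 2 genotypes did not overlap on this scale, which uses window totals alone. The TMM scaling used in the tests of single sites has factors of 0.755 and 0.824 for the WT libraries and above 1 for both P-KO libraries, which lowers P-KO values relative to WT values.

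Some other strong sites varied more between libraries of a genotype than between genotypes. The site at chr8:38279066 on the minus strand, in intron 10 of ENST00000397103.1, had 45.7 and 194 CPM in WT and 103 and 390 CPM in P-KO cells, so both replicate 2 libraries stood above both replicate 1 libraries. At chr1:988773 on the plus strand, in intron 33 of ENST00000379370.2, the order was the opposite, with 183 and 55.4 CPM in WT and 332 and 143 CPM in P-KO cells. At chr18:20798564 on the plus strand, in intron 4 of ENST00000400473.2, the values were 133 and 201 CPM in WT and 237 and 148 CPM in P-KO cells, and the genotypes overlapped. A strong site at chr17:713533 on the minus strand, in intron 3 of ENST00000575801.1, stood far from the other proteins, with the nearest TDP43 position at 2794 nt and the nearest hnRNP M position at 1378 nt. It had 82.3 and 184 CPM in WT and 237 and 240 CPM in P-KO cells.

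Most FOX2 positions of a library were not seen in another. Of the 73485 windows, 63768 (86.8%) had no listed position within 5 nt in any other FOX2 library, 4959 (6.75%) had one in 1 other library, 2665 (3.63%) in 2 and 2093 (2.85%) in all 3. The share found again followed the depth of the other library only in part: 5.31% were found in WT replicate 2, 7.20% in the shallower P-KO replicate 1 and 10.0% in P-KO replicate 2.

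Repetition rose steeply with the count of the window. Of windows with 2 counts, 0.428% were repeated in all 4 libraries, against 2.15% with 3 counts, 7.38% with 4, 16.2% with 5, 34.3% with 6 to 7, 57.5% with 8 to 10 and 71.1% with 11 to 15. From 21 counts upwards the share was 84.0% (21 to 30 counts) and 83.3% (31 to 87 counts). The share of repeated windows that were free of TDP43 and hnRNP M went the other way, from 89.0% at 2 counts to 40.0% at 31 to 87 counts. FOX2-only sites are thus a smaller part of the strongest repeated FOX2 positions than of the weak ones. Of the 74 windows with more than 20 counts, 31 were FOX2-only sites, 31 were repeated beside another protein and 12 were not repeated. Of those 12, 11 were found in 2 other libraries, and the missing library was WT replicate 2 for 10 of them.

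**Figure D2:**
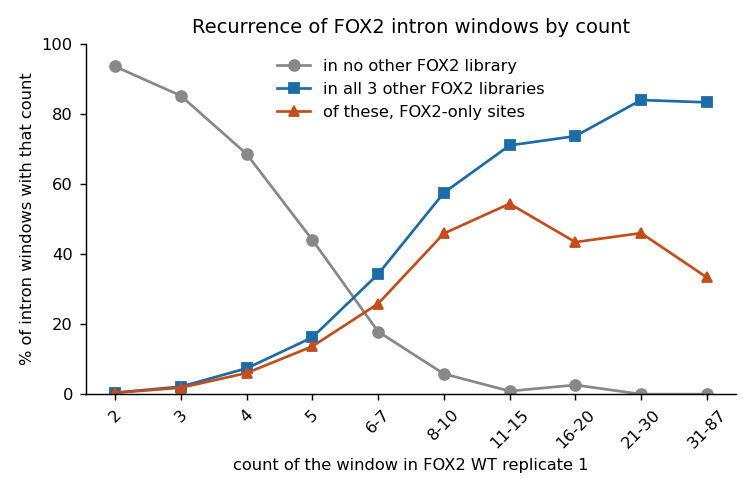
Share of FOX2 WT replicate 1 intron windows found in no other FOX2 library (circles), found in all 3 others (squares) and, among the latter, free of the other proteins (FOX2-only sites, triangles, as a share of all windows), by the window's count. The repeated share runs from 0.428% at 2 counts to 83.3% at 31 to 87 counts, and the gap between the curves widens at high counts.

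The thresholds of the rule cut through sites of like strength. The farthest repeat lay at exactly 5 nt for 126 sites, with a median of 3 counts in WT replicate 1, and 87 windows with a median of 4 counts were left out because it lay at 6 nt. On the other side, 17 sites had a TDP43 or hnRNP M position at 11 nt and 18 repeated windows had one at 10 nt, with medians of 4 and 5 counts.

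The libraries often met at the same nucleotide. The rule asked for a position within 5 nt, and the exact nucleotide was listed in WT replicate 2 at 788 sites (46.9%), in P-KO replicate 1 at 1035 (61.6%) and in P-KO replicate 2 at 1285 (76.5%). All 4 libraries listed the same nucleotide at 524 sites (31.2%). At 1 nt upstream of the site, WT replicate 2 had a listed position at 30.1% of sites, and at 1 nt downstream at 30.7%. This peak is a description, since the windows centre on the strongest local position of one of the libraries. A listed position on the opposite strand was present at 4 of the 1680 sites in any FOX2 library, and at 0 sites in any TDP43 or hnRNP M library.

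Outside the 10 nt the rule governs, the FOX2 signal fell slowly with distance. Between 31 and 100 nt from a site, a given nucleotide was listed at 5.21% and 9.55% of sites in the WT libraries and at 13.0% and 28.7% in the P-KO libraries. Both P-KO libraries lay above both WT libraries, and within each genotype the deeper library had the higher level. Over this distance the replicate 1 libraries were slightly higher on the 3′ side (5.48% against 4.94% in WT and 13.9% against 12.2% in P-KO), and the replicate 2 libraries were lower there, at 8.81% against 10.3% on the 5′ side in WT and at 27.5% against a mean of 28.7% over both sides in P-KO. These levels come from overlapping surroundings of sites that often lie close together.

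**Figure D3:**
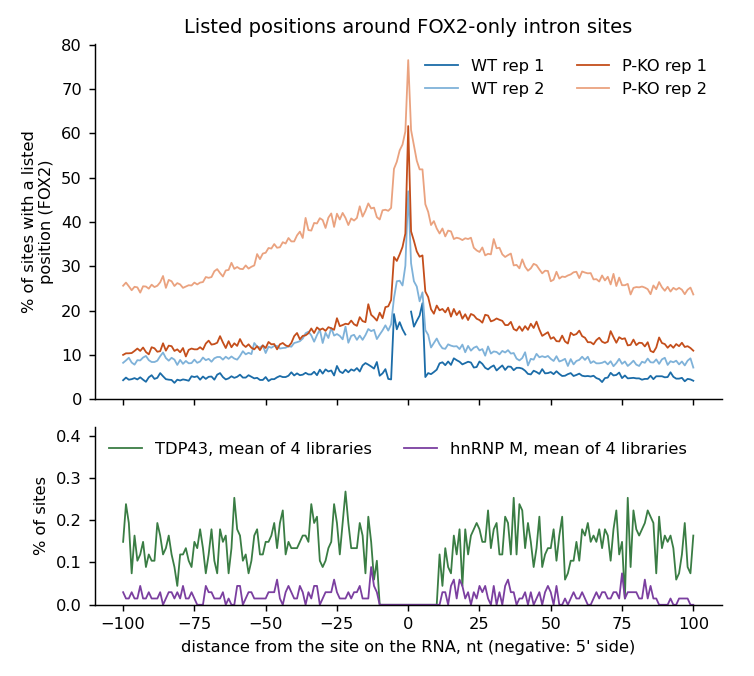
Percentage of the 1680 sites with a listed position at each distance from the site along the RNA, for the 4 FOX2 libraries (top) and as the mean of the 4 TDP43 and of the 4 hnRNP M libraries (bottom, a much smaller scale). WT replicate 1 is not drawn at distance 0, where it is listed by construction, and the empty 10 nt on either side in the bottom panel are set by the rule; at 0 the other FOX2 libraries reach 46.9%, 61.6% and 76.5%.

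The sites gathered in stretches. Joined where neighbours lay at most 100 nt apart on a strand, the 1680 sites formed 952 stretches, of which 672 were lone sites (40.0% of the sites), 223 held 2 to 4 sites and 57 held 5 or more. These 57 stretches held 436 sites (26.0%), and 13 of them with 10 or more sites held 170. Among all 73485 windows of the same library, 85.2% were lone and 3.79% lay in stretches of 5 or more. Sites that were TDP43-only by the same rule, 376 in number, were 71.3% lone and had 1 stretch of 5 or more. Sites in stretches of 5 or more also had more signal, with a median of 41.1 CPM against 30.3 CPM in stretches of 2 to 4 and 23.6 CPM for lone sites. These contrasts are descriptions without a test, since windows with high counts both repeat more often and have more neighbours. For 320 sites (19.0%) another site lay within 15 nt, so that a listed position of the other libraries can count towards both.

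The longest run of sites was chr3:76061909-76062284 on the plus strand, in intron 2 of ENST00000487694.3, with 17 sites over 376 nt. FOX2 had 134 and 239 counts there in the 2 WT libraries, then 377 and 1248 in the 2 P-KO libraries, which is 720 ± 152 CPM in WT and 1774 ± 212 CPM in P-KO cells (SD, n = 2 each). Within 100 nt of the stretch, TDP43 had 6 counts in WT replicate 1 and 2 in P-KO replicate 2 and was listed at 0 in the other two, and hnRNP M was listed at 0 in all of its libraries. With sites this close together, the rule itself keeps the other proteins out of most of the stretch.

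The most strongly covered stretch was chr5:93535380-93535914 on the minus strand, in intron 1 of ENST00000513200.3, whose 3′ end along the RNA is the strongest single site. Its 14 sites lay over 535 nt, and the FOX2 counts were 244 and 613 (WT) against 767 and 3224 (P-KO), or 1619 ± 713 CPM and 4137 ± 1179 CPM (SD, n = 2 each). Within 100 nt of it TDP43 had 12 and 6 counts in WT cells, with both P-KO libraries listed at 0, and hnRNP M had 11 counts in WT replicate 2 alone. Each P-KO library was above each WT library in FOX2 CPM.

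At chr17:80785698-80786326 on the plus strand, in intron 13 of ENST00000355528.4, 16 sites lay over 629 nt, the greatest length among the 57. The FOX2 counts were 161 and 275 (WT) against 402 and 1551 (P-KO), or 844 ± 153 CPM and 2061 ± 466 CPM (SD, n = 2 each). The 16 sites at chr2:168207022-168207434 on the plus strand, in intron 1 of ENST00000442316.1, differed less between the genotypes, at 941 ± 66.4 CPM and 1337 ± 314 CPM (SD, n = 2 each). The 13 sites at chr8:1773456-1773676 on the plus strand, in intron 1 of ENST00000349830.3, stood at 1037 ± 439 CPM in WT and 1370 ± 74.2 CPM in P-KO cells (SD, n = 2 each), where WT replicate 2 lay between the P-KO libraries. TDP43 and hnRNP M were listed at 0 within 100 nt of this last stretch in all 8 of their libraries.

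**Figure D4:**
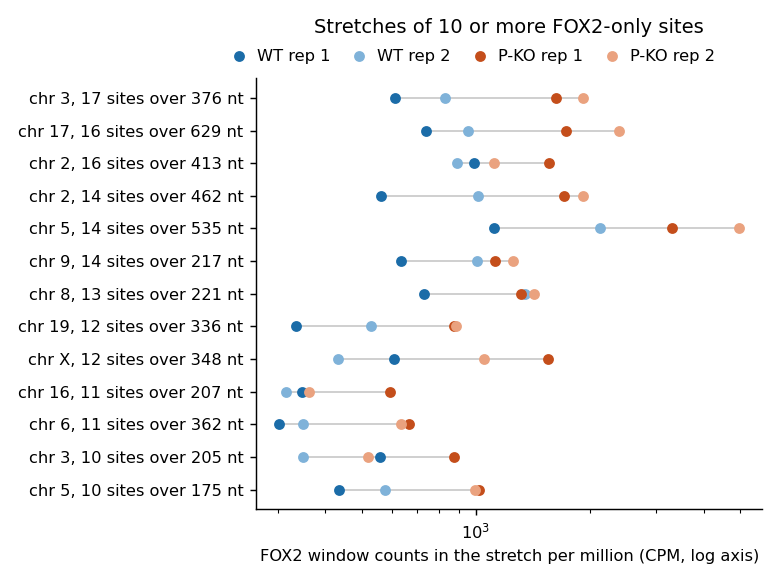
FOX2 counts per 1000000 window counts (CPM) in each library for the 13 stretches of 10 or more FOX2-only sites, on a log axis, named by chromosome, number of sites and length. In the first stretch the values run from 613 CPM in WT replicate 1 to 1924 CPM in P-KO replicate 2; the genotypes overlap in the chromosome 8 stretch and in the 10-site stretch of chromosome 3.

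Over the 57 stretches of 5 or more sites, with a median length of 191 nt, the ratio of mean P-KO to mean WT CPM ran from 0.826 to 3.24 with a median of 1.89, and it was above 1 in 56. This tally rests on scaling by window totals: with CPM divided by the TMM factors, the ratio ran from 0.525 to 2.00 with a median of 1.18, and it was above 1 in 38 of 57. It then stood at 1.55 in the stretch with 17 sites on chromosome 3 and at 1.63 in the strongest one on chromosome 5, and below 1 in those of chromosome 2 at 168207022 (0.875) and chromosome 8 (0.835). With window totals, the one stretch below 1 was chr20:62446586-62446651 on the minus strand, in intron 4 of ENST00000245663.4, where the counts were 35 and 74 (WT) against 33 and 131 (P-KO). TDP43 was listed at 0 in all 4 of its libraries within 100 nt of 30 of the 57 stretches, and hnRNP M of 47. The stretch at chr5:7525930-7526104 on the plus strand, in intron 3 of ENST00000338316.4, was the one with TDP43 in all 4 libraries, at 6 and 6 counts (WT) and 5 and 6 (P-KO), beside 95, 166, 237 and 645 counts of FOX2.

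By the identifiers of the WT replicate 1 list, the sites lay in 628 introns of 576 transcripts. Where another library listed the same nucleotide, the transcript and intron agreed at 90.0% (WT replicate 2), 91.8% (P-KO replicate 1) and 92.3% (P-KO replicate 2) of sites. Some stretches carried several identifiers, so counts by transcript depend on how positions were labelled. A single site was present in 320 transcripts (55.6%), while 92 transcripts with 5 or more held 909 sites (54.1%). The transcripts with most sites were ENST00000355528.4 and ENST00000513200.3 with 34 each and ENST00000487694.3 with 33. Their spread along the RNA differed: the 33 sites of ENST00000487694.3 spanned 412301 nt in 9 stretches, and the 23 sites of ENST00000334062.7 on chromosome 13 spanned 1231 nt in 4. First introns held 406 sites (24.2%), against 22.9% of all windows, and the median intron number was 4 in both. Chromosome 3 held most sites, 139, which is 8.27% against 7.70% of all windows. Chromosomes 13 (4.94% against 2.58%) and 20 (3.75% against 1.90%) held more than their share of windows, and chromosome 4 held less (2.86% against 5.12%).

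TDP43 was near most sites at a larger scale. Outside the 10 nt that the rule kept free, a TDP43 position of any library lay within 30 nt of 206 sites (12.3%), within 100 nt of 543 (32.3%) and within 1000 nt of 1398 (83.2%), with a median distance of 227 nt. Among all 73485 windows the median distance was 699 nt, and 58.5% had TDP43 within 1000 nt. hnRNP M, whose libraries list far fewer positions, lay within 1000 nt of 776 sites (46.2%) with a median of 1318 nt, against 25.7% and 3661 nt for all windows. FOX2-only therefore describes the nearest nucleotides and not the intron around them. Of lone sites 76.9% had TDP43 within 1000 nt, against 88.5% of sites in stretches of 5 or more. The RNA level of the host transcripts, which can bear on how much any protein is listed there, was not measured here.

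The 4 libraries resembled each other by replicate number more than by genotype. Across the 1680 sites, Pearson's r of log2 counts was 0.72 between the replicate 2 libraries of the 2 genotypes and 0.62 between the replicate 1 libraries. It was 0.46 between the WT libraries and 0.58 between the P-KO libraries. The 2 remaining pairs gave 0.48 (WT replicate 1 with P-KO replicate 2) and 0.46 (WT replicate 2 with P-KO replicate 1). The same 2 pairs were highest with 1 site per stretch (n = 952 sites), at 0.74 and 0.65, and among the 413 repeated windows beside another protein, at 0.82 and 0.77. They were also highest across the 376 TDP43-only sites in the TDP43 libraries, at 0.62 and 0.46, against 0.34 between the WT and 0.19 between the P-KO libraries. These are correlations across sites, which share libraries and are not independent, and the labels do not say what a replicate number marks.

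**Figure D5:**
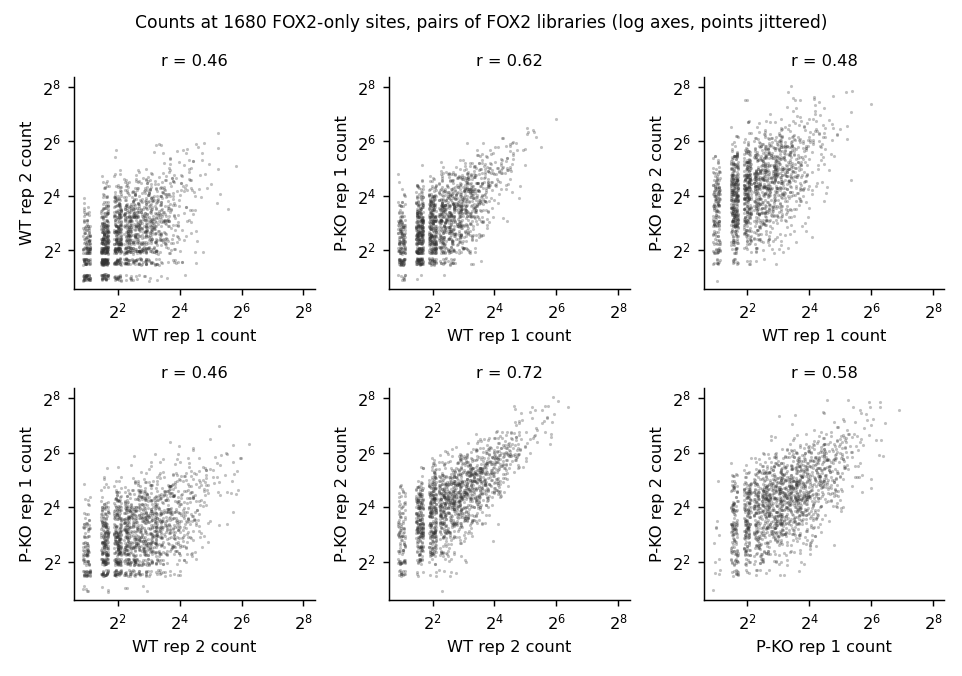
Counts at the 1680 FOX2-only sites in each pair of FOX2 libraries, 1 point per site on log axes, moved slightly at random so that equal counts can be seen, with Pearson's r of log2 counts above each panel. The pairs with the same replicate number (0.62 and 0.72 at the FOX2-only sites) lie above the pairs of the same genotype (0.46 and 0.58).

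The sites took a larger share of the FOX2 counts in P-KO cells. They held 4.67% and 4.13% of all window counts in the WT libraries and 7.46% and 6.13% in the P-KO libraries, or 4.40% ± 0.380 against 6.80% ± 0.937 (SD, n = 2 each), a ratio of 1.55. Each library's own windows centred within 5 nt of a site were summed. There were 1680 and 1423 such windows in the WT and 1463 and 1482 in the P-KO libraries. The share thus covers every site only in WT replicate 1, from which the sites were chosen. The genotypes did not overlap, but 2 libraries against 2 cannot give an exact two-sided permutation p below 0.333, which is the value found. The sites were chosen by a listing in each of these same libraries, so the share is a description. It is also scaled by window totals alone. With TMM scaling, the 620 sites tested singly had a median log2 fold change of 0.03. The 413 repeated windows beside another protein showed a like difference, 1.62% ± 0.117 against 2.70% ± 0.321, a ratio of 1.66, so it was not particular to FOX2-only sites. The make-up of the libraries moved with genotype as well: windows found in no other FOX2 library held 76.1% and 68.5% of the WT counts and 51.1% and 53.0% of the P-KO counts. The part of this in the larger share at the sites was not tested. In bulk libraries such as these, more cells holding an RNA and more of that RNA in each cell cannot be told apart. Neither can be told from more FOX2 bound per RNA.

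Single sites were then compared between the genotypes with edgeR's quasi-likelihood test over all windows of the 4 FOX2 libraries, in which each library is scaled by trimmed mean of M-values (TMM). Of 2158 windows with enough counts, 0.0% passed an adjusted p of 0.05, and 131 (6.07%) had an unadjusted p under 0.05. Of the 1680 sites, 620 passed the filter on low counts, of which 0 passed the adjusted threshold and 0 the unadjusted one. Among the 573 other tested windows listed in all 4 libraries, 1 (0.175%) had an unadjusted p under 0.05. DESeq2 called 62 windows (2.87%), all lower in P-KO cells, and 0 of them were FOX2-only sites. It gave 544 of the 2158 windows no adjusted p. The rule needs a listing in both genotypes, so a window unlisted in P-KO cells cannot be a FOX2-only site. The 0 of 62, and the 0 of 620 beside 6.07% of all windows, are thus in part set by the rule and are not findings about the sites. When the fit was limited to the 2793 windows listed in all 4 libraries, so that every site was tested, 57 of 1680 sites (3.39%) had an unadjusted p under 0.05, close to the 3.58% of all windows in that fit, and 0 passed after adjustment.

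The scaling moved the direction of the tested sites, which are given here as a description. With TMM, 318 of the 620 sites had a positive log2 fold change and the median was 0.03, against 0.12 for all windows tested. Scaled by window totals alone, 557 were positive and the median was 0.72, against 0.79 for all windows. The sites less all windows tested came to -0.09 with TMM, but to 0.99 with no filter on low counts and to -0.49 without WT replicate 2, so that no direction relative to other windows can be given. The standard error of a single site's log2 fold change had a median of 0.77, so changes of less than several-fold could not be told from the spread between libraries. A simulation with this spread gave no calls even for large changes, so the absence of calls does not show that the sites were equal in the genotypes.

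The site with the smallest p lay at chr1:213155200 on the plus strand, in intron 8 of ENST00000366966.2, where the counts were 5 and 6 (WT) against 32 and 58 (P-KO). Its CPM was 21.8 ± 1.47 in WT and 114 ± 34.2 in P-KO cells (SD, n = 2 each), and its TMM-scaled log2 fold change was 1.62 ± 0.58 (SE), with an adjusted p of 0.826 in edgeR's test. Over the alternative settings this fold change ran from 0.67 (count of the nearest listed position) to 2.31 (window totals without TMM). The 2 genotypes did not overlap, yet the difference did not pass. At chr3:76061962, in the longest run of sites in ENST00000487694.3, the counts were 7 and 11 (WT) against 35 and 107 (P-KO), with a log2 fold change of 1.44 ± 0.54 (SE) and an adjusted p of 0.883 by edgeR. At chr5:93535261, near the strongest stretch in ENST00000513200.3, the counts were 8 and 16 (WT) against 58 and 119 (P-KO), and the log2 fold change was 1.49 ± 0.60 (SE), which did not pass either (edgeR adjusted p = 1.00).

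Means lower in P-KO cells were found as well. At chr3:149683765 on the minus strand, in intron 3 of ENST00000481585.1, the counts were 20 and 11 (WT) against 10 and 22 (P-KO), which is 64.8 ± 37.7 CPM against 38.5 ± 6.47 CPM (SD, n = 2 each). Its log2 fold change was -1.51 ± 0.74 (SE) and the WT libraries differed widely from each other. The genotypes overlapped, with P-KO replicate 1 above WT replicate 2 in CPM. The stretch of 10 sites around it had a P-KO over WT ratio of 1.53 by window totals and 0.933 with the TMM factors. At chr20:62446611 on the minus strand, in the stretch of ENST00000245663.4 whose ratio was 0.826, the counts were 11 and 19 (WT) against 11 and 28 (P-KO), with a log2 fold change of -1.08 ± 0.55 (SE). Neither passed the test, with an adjusted p of 1.00 in edgeR for both.

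The surroundings of the sites were compared in strand-specific bins of 10 kb, of which 645 held at least 1 site. These bins took 15.3% ± 2.53 of the FOX2 counts (WT) against 30.8% ± 2.22 (P-KO) (SD, n = 2 each), a ratio of 2.01. The 7877 other bins with counts in all 4 FOX2 libraries held 31.8% and 31.5% (WT) and 38.4% and 40.2% (P-KO), a ratio of 1.24. For TDP43 the same 645 bins held 3.64% ± 0.482 and 3.49% ± 0.0641, and for hnRNP M 3.34% ± 0.0580 and 3.57% ± 0.261 (SD, n = 2 each), differences smaller than the larger of the 2 SDs for each protein. The bins were chosen by FOX2 counts, and whether the proteins differ in this was not tested.

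No bin with a site passed edgeR's test for any protein. Of 10563 bins tested, 615 held sites, and 0 of these were called in any of the 3 comparisons (FOX2, TDP43 and hnRNP M in that order), where the calls over all bins came to 0.0189%, 0.0284% and 0.0473%. An unadjusted p under 0.05 in edgeR was reached by 0 of the 615 (0.0%) in the FOX2 comparison, against 3.79% of all bins. It was reached by 38 (6.18%) with TDP43 and by 114 (18.5%) with hnRNP M, against 2.13% and 11.4% of all bins. DESeq2 called 7 of the bins with sites for hnRNP M (3 higher and 4 lower in P-KO cells), where it called 30 of 10563 bins (0.284%; 5 higher and 25 lower) and gave 9420 no adjusted p. The FOX2 log2 fold change was positive in 571 of the 615 bins with a median of 1.09, against -0.21 over all bins, and the median was 0.40 against -0.07 when the 4 FOX2 libraries were fitted alone. In that fit an unadjusted p under 0.05 in edgeR was reached by 39 of 610 bins with sites (6.39%) and by 365 of all 3956 bins. The bins with sites were chosen by a listed position in each FOX2 library. Their median against all bins is thus a description, and the 0 of 615 in the FOX2 comparison is in part set by the rule.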

How the data were processed

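The deposited files give, per library, positions with a whole-number count and a value of at most 0.05 that is a p-value or q-value. Per the submitters' processing notes Bowtie was used with GRCh37 (hg19); its version, the peak caller and whether reads were collapsed to cDNAs are not given in sources used here. The lists were made by the authors per library, so the counts are cut at a lowest value of 2 and unlisted positions are not measured zeros. From the deposited counts, 11-nt windows were taken from the highest count downwards, and a site's count in another library was the highest within 5 nt. CPM is a window count per 1000000 window counts of its library. Windows of the 4 FOX2 libraries (2 WT, 2 P-KO) and 10 kb bins of all 12 libraries were tested with edgeR 4.0.16 in R 4.3.3 (TMM, filterByExpr, quasi-likelihood, Benjamini-Hochberg at 0.05), with DESeq2 1.42.0 as an alternative; both edgeR fits were tested on simulated data, where they recovered none of the altered features at the spread of these libraries and most of them at a low spread. The SE of a site's log2 fold change was not an output of the edgeR fit. It was worked out as the absolute log2 fold change divided by the square root of the test's F statistic. Shares were compared by an exact two-sided permutation test in Python 3.11.15 with numpy 2.4.6. Named sites are the 20 with the highest mean CPM, the 10 with the smallest p and the stretches with most sites, of which some are described. The sites and lists were chosen with earlier results of these data known. Lists of gene names were not used, as the files pair no names with transcripts, and sequences were not analysed here. Precision is limited by 2 libraries per group and by the few counts at most sites.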

Additional observations from a re-analysis of the deposited data

How the results depend on the processing

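The number of sites, 1680, became 1043 when TDP43 and hnRNP M had to be absent to 100 nt and 1077 with a last column of at most 0.01. Asking for repeats in one library fewer gave between 1797 (without P-KO replicate 2) and 3234 (without WT replicate 2) sites. The count of FOX2-only sites past the adjusted threshold was 0 in the 15 settings of the window fit, though the fits called 107 windows without WT replicate 1, 47 without WT replicate 2, 54 without P-KO replicate 1 and 62 with DESeq2. Since the fit had little power at this spread, the counts of 0 say nothing about stability. Same-numbered libraries deviated together across the sites (r = 0.45, 2 pairs), but they share only a number in the labels. With the replicate block, the count was 0 as well. The median log2 fold change of the sites less that of all windows tested, -0.09, was -0.25 with the replicate block, 0.99 with no filter on low counts, -0.025 over windows listed in all 4 libraries, 0.31 with all 12 libraries (11 sites tested), -0.13 without mitochondrial, unplaced-contig and chromosome 15 region windows, -0.13 with the nearest count, and between -0.49 (without WT replicate 2) and -0.17 (without WT replicate 1) with a library left out. It was positive in the unfiltered and the 12-library fits alone, and the cause was not tested. The nearest-count setting, the TMM-scaled ratios of the stretches and this median were added after seeing the data. DESeq2 called 7 of the 615 bins for hnRNP M, where edgeR called 0. Over all bins DESeq2 called 0.284%, but it gave 9420 of the 10563 bins no adjusted p, so that share is not a like background. The share of sites holding the FOX2 element was not run, as no sequence was analysed here. With a median of 5 counts per site in the shallowest FOX2 library, depth limits what single sites can show. The other 45 alternative values of these results and the 128 of the 10 named sites and the count of stretches kept their direction and their side of the threshold, or stayed within 1.5 times for a count.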
